A study of Homo sapiens with 4 samples.

Results

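The classical cadherins and the catenins that bind them were followed in MCF12A cells edited at a promoter of *C1orf132*. The group was chosen by name and holds 9 genes, namely *CDH1*, *CDH2*, *CDH3*, *CDH4*, *CDH11*, *CDH13*, *CTNNA1*, *CTNNB1* and *CTNND1*. Of the 16811 genes listed, 8 are members, and *CDH11* has no row. MCF12A is an immortalized, non-tumorigenic line of human breast epithelium, although its source label calls it a breast cancer line. In the edited cells the p2 promoter of *C1orf132* had been cut out with CRISPR/Cas9 (genotype label C1orf132 KO), and the wild-type cells (label WT) are unedited MCF12A. Edited colonies were grown from single sorted cells, and the sources used here do not say which colony was sequenced or whether both edited libraries came from it. All cells were grown in the same medium, with horse serum, EGF, hydrocortisone, cholera toxin and insulin. Poly(A)-selected RNA was sequenced as single-end reads of 75 bases in 2 biological replicates of each genotype.

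Classical cadherins are calcium-dependent adhesion proteins that pair between neighbouring cells at adherens junctions. Their cytoplasmic tails bind beta-catenin (*CTNNB1*) and delta-catenin (*CTNND1*), and beta-catenin in turn binds alpha-catenin (*CTNNA1*), which links the complex to actin. E-cadherin (*CDH1*) is the main cadherin of luminal mammary epithelium and P-cadherin (*CDH3*) that of basal and myoepithelial cells, whereas N-cadherin (*CDH2*) is typical of neural and mesenchymal cells. Replacement of E-cadherin by N-cadherin is called cadherin switching, and the comparison of edited with wild-type cells bears on it.

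Where 4 libraries are listed, replicate 1 comes before replicate 2 in each genotype. The deposited values are normalized in a way that the sources used here do not give. In 56 of 800 genes with 1 transcript, they ran in steps inverse to transcript length, as reads per length would. On that ground they were treated as comparable between genes. They summed to between 1444640 and 1655440 per library, and the estimated depth relative to edited replicate 1 lay between 0.930 and 1.12. The 2 genotypes were set against each other with limma, on log2(value + 1) and over all 16811 genes. A gene was called at a Benjamini-Hochberg adjusted p under 0.05. By this rule 4.73% of all genes were called, 1.33% higher and 3.4% lower in edited cells. Of the 8 genes, 2 fell (*CDH1* and *CDH3*), 2 rose (*CDH2* and *CDH4*) and 4 were not called. The 3 catenins were among the latter. With 2 libraries a side, the smallest two-sided p of an exact permutation test is 0.333. Single genes therefore rest on the variance that limma shares across genes. When either wild-type library was dropped, no gene at all was called, so a call lost there is not particular to a gene. No value of *C1orf132* was analysed here, and each library's genotype is taken from its label.

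**Figure D1:**
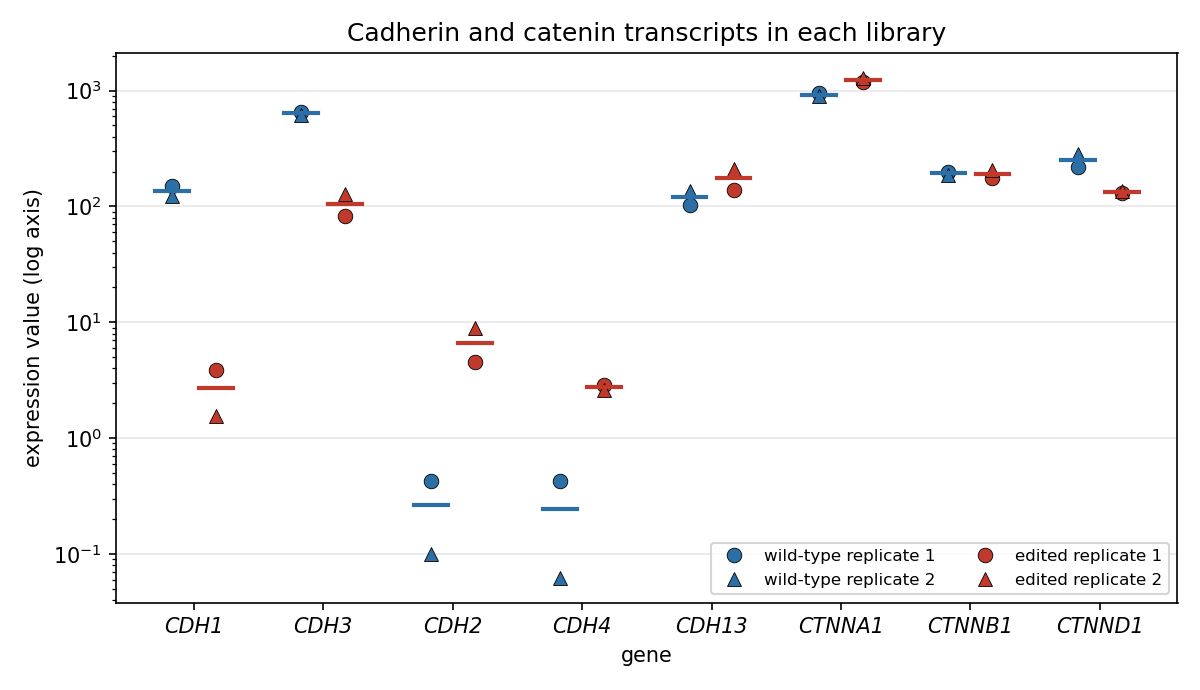
Expression value (log axis) of the 5 cadherins and 3 catenins in each library. Circles are replicate 1, triangles replicate 2 and bars the mean of 2. *CDH1* and *CDH3* were lower and *CDH2* and *CDH4* higher in both edited libraries, and *CTNNB1* overlapped between the groups.

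E-cadherin transcripts were almost lost from the edited cells. The value of *CDH1* was 3.89 and 1.54 in edited cells against 150 and 123 in wild-type cells. Both edited libraries lay far below both wild-type libraries, and the estimated reads behind these values were about 164 and 73 against 5902 and 5191. The mean was 2.72 ± 1.66 after editing against 137 ± 19.5 in unedited cells (SD, n = 2 each), a 50.3-fold lower level. This ratio rested partly on edited replicate 2, since it was 35.1 without it and 88.6 without edited replicate 1. The log2 fold change was -5.28 (SE 0.35, limma adjusted p = 0.00757) and lay between -5.75 and -4.81 when any 1 library was dropped. The call was lost, as for every gene, when wild-type replicate 1 or 2 was dropped.

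P-cadherin, which had the highest value of the 5 cadherins in wild-type cells, also fell. *CDH3* had values of 82.1 and 129 in edited cells against 655 and 619 in wild-type cells. The wild-type libraries lay close together and the groups did not overlap. Its mean was 106 ± 33.4 after editing against 637 ± 25.1 in unedited cells (SD, n = 2 each), 6.02-fold lower, with a log2 fold change of -2.61 (SE 0.26, limma adjusted p = 0.0171). Dropping edited replicate 1 ended this call, and dropping wild-type replicate 1 or 2 ended it as for every gene. The log2 fold change lay between -2.94 and -2.29 in the fits without 1 library. *CDH1* and *CDH3* did not fall by the same factor. The ratio of *CDH3* to *CDH1* was 4.35 and 5.04 in wild-type cells and reached 21.1 and 83.8 after editing. It was higher in both edited libraries than in both wild-type libraries (exact two-sided permutation p = 0.333, the smallest possible here).

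*CDH3* and *CDH1* are neighbours on chromosome 16 (GRCh38), from 68645310 to 68733771 and from 68737292 to 68835537, with 3520 bases between them. Of the 5 measured genes on each side of *CDH1*, *CDH3* was the 1 gene called. On the side of *CDH3*, *ZFP90*, a zinc finger gene, had a log2 fold change of -0.46 (limma adjusted p = 0.196) and *PRMT7*, an arginine methyltransferase gene, of 0.90 (adjusted p = 0.0671). On the far side, *TANGO6* had a log2 fold change of 0.71 (limma adjusted p = 0.119) and *HAS3*, a hyaluronan synthase gene, of -0.74 (adjusted p = 0.187). *UTP4*, which acts in ribosome biogenesis, had the highest log2 fold change of the 10 neighbours, 0.99 (limma adjusted p = 0.0766). The remaining 4, *SLC7A6*, *SLC7A6OS*, *CHTF8* and *SNTB2*, lay between -0.26 and 0.53. The median log2 fold change of the 10 neighbours was 0.07, against 0.22 over the 638 measured genes of chromosome 16. On that chromosome 29 genes (4.55%) were called.

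**Figure D2:**
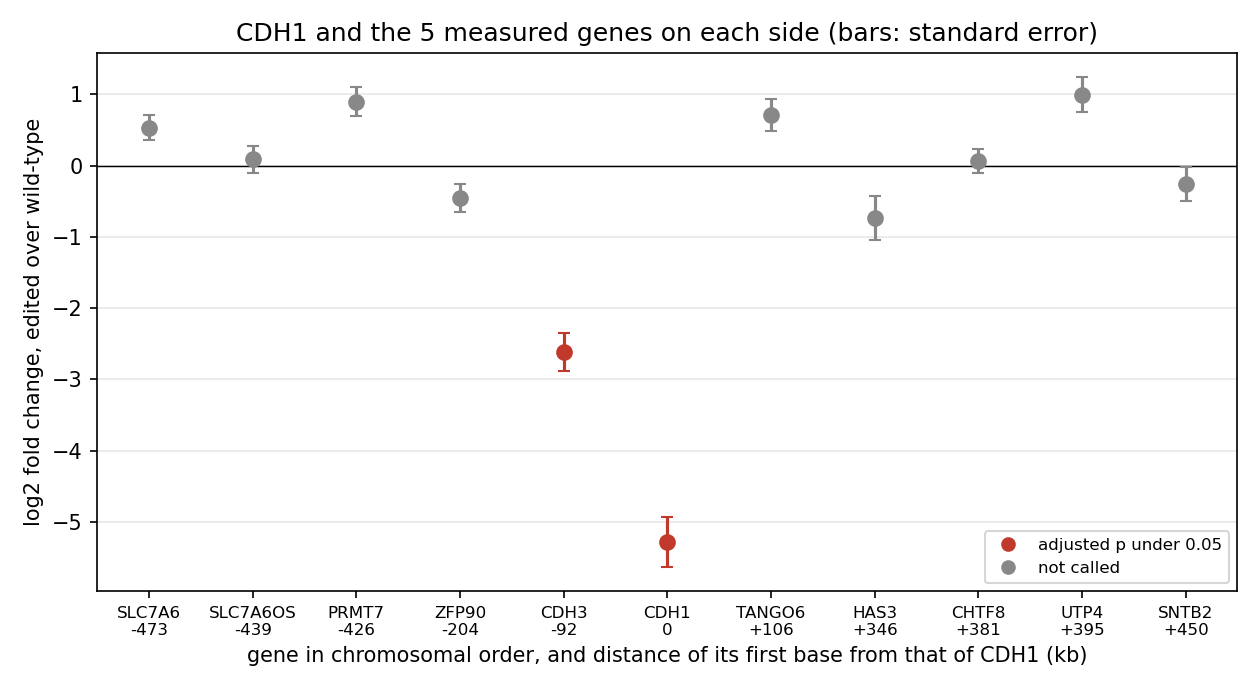
Log2 fold change of edited over wild-type cells (vertical axis, bars show the standard error from limma) for *CDH1* and the 5 measured genes on each side, in chromosomal order with the distance of each first base from that of *CDH1* in kb. *CDH1* and *CDH3* lie at -5.28 and -2.61, and the other genes lie between -0.74 and 0.99.

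N-cadherin rose from a level near the floor of detection. *CDH2* was at 4.52 and 8.87 in edited cells against 0.429 and 0.0996 in wild-type cells. Estimated reads came to about 159 and 350 after editing but only about 14 and 4 without it, so the wild-type level is known only coarsely. The mean was 6.69 ± 3.07 after editing against 0.264 ± 0.233 in unedited cells (SD, n = 2 each). The ratio of these means was 25.3. Dropping wild-type replicate 1 made it 67.2, dropping wild-type replicate 2 made it 15.6, and dropping edited replicate 2 made it 17.1. The log2 fold change was 2.56 (SE 0.37, limma adjusted p = 0.0347), and dropping any 1 of the 4 libraries raised the adjusted p to between 0.0775 and 0.228.

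R-cadherin (*CDH4*), a close relative of N-cadherin best known from the retina and nervous system, rose as well. Its values were 2.88 and 2.61 in edited cells against 0.422 and 0.0625 in wild-type cells, the latter resting on an estimated 23 and 4 reads. The edited libraries were alike and the wild-type libraries were not. Its mean was 2.75 ± 0.189 after editing against 0.242 ± 0.254 in unedited cells (SD, n = 2 each). The ratio of means was 11.3, with 43.9 against wild-type replicate 2 alone and 6.50 against wild-type replicate 1 alone. Its log2 fold change of 1.61 (SE 0.28, limma adjusted p = 0.0466) lay just inside the threshold, and with a pseudocount of 0.1 the adjusted p was 0.0774. It was between 0.102 and 0.225 (limma) when any 1 library was dropped.

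A promoter window of each of these 2 cadherins is shown because both genes were called higher. Each runs from 250 bases before to 50 bases after a start site annotated by RefSeq (GRCh38.p14), is read 5′ to 3′ along the gene's strand, and has the E-box that SNAIL, ZEB and TWIST factors can bind (CAGGTG, or CACCTG on the other strand) in capitals. The *CDH2* window lies at chr18:28177081-28177380 on the minus strand and holds the first base of the gene. The *CDH4* window lies at chr20:61499171-61499470 on the plus strand, inside the gene, which runs from 61252261 to 61940617. It was picked of 2 *CDH4* windows because it holds the E-box, and which start site these cells used was not tested.
CDH2: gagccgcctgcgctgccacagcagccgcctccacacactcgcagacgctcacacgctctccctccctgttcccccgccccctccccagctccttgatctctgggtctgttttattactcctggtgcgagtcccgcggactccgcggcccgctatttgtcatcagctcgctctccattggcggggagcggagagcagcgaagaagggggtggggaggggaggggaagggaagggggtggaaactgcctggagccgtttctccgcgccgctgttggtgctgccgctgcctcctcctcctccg
CDH4: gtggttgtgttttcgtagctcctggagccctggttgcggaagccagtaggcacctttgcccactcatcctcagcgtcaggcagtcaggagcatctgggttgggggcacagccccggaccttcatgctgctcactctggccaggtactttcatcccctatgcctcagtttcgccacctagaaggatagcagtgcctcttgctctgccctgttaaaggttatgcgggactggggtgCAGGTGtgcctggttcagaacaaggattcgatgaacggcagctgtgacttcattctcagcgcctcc
The *CDH2* window shown held 0 such E-boxes, a GC content of 67.0% and 23 CpG dinucleotides. The other *CDH2* window, chr18:28036592-28036891, held 0 E-boxes, a GC content of 40.7% and 4 CpG dinucleotides. The *CDH4* window shown held 1 E-box, which starts at position 235 of the window, a GC content of 57.3% and 9 CpG dinucleotides. The other *CDH4* window, chr20:61599511-61599810, held 0 E-boxes, a GC content of 62.0% and 14 CpG dinucleotides. Of all 35116 promoter windows of that length, 20.6% held the E-box, and the medians were 58.7% for GC content and 14 for CpG dinucleotides. Entries were found for 4 of the 9 genes (*CDH2*, *CDH4*, *CTNNA1* and *CTNNB1*) at 9 start sites, 1 of which held the E-box. *CDH1*, *CDH3*, *CDH11*, *CDH13* and *CTNND1* had none.

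T-cadherin (*CDH13*) is anchored to the membrane by a lipid and has no tail to bind catenins. It was at 139 and 212 in edited cells against 104 and 136 in wild-type cells. The groups barely separated, edited replicate 1 lying just above wild-type replicate 2. Its mean of 176 ± 51.9 after editing against 120 ± 23.1 in unedited cells (SD, n = 2 each) gave a log2 fold change of 0.53 (95% interval from -0.17 to 1.23, limma adjusted p = 0.266), which was not called. *CDH24* was the 1 gene with a row among the 16 other cadherins looked for. It was at 14.7 ± 3.62 after editing against 20.8 ± 2.62 in unedited cells (SD, n = 2 each) (log2 fold change -0.49, limma adjusted p = 0.246).

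Because the values were treated as per length, the 5 cadherins were added within a library. Their sum was 232 and 355 in edited cells against 909 and 878 in wild-type cells. The edited cells therefore held less cadherin transcript in all, 294 ± 86.5 against 894 ± 21.9 (SD, n = 2 each), 3.05-fold lower. In wild-type cells *CDH3* made up 71.2% ± 1.06 of the sum, *CDH1* 15.3% ± 1.80 and *CDH13* 13.5% ± 2.92 (SD, n = 2). In edited cells *CDH13* made up 59.8% ± 0.0588, *CDH3* 35.9% ± 0.780, *CDH2* 2.22% ± 0.392 and *CDH1* 1.05% ± 0.876 (SD, n = 2). For the sum and for each of these shares the groups did not overlap (exact two-sided permutation p = 0.333 each, the smallest possible, over 2 against 2 libraries).

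Among *CDH1*, *CDH2*, *CDH3* and *CDH4*, P-cadherin (*CDH3*) stayed the most abundant in both genotypes. Without *CDH13*, the sum fell from 774 ± 45.1 to 118 ± 34.6 (SD, n = 2 each), 6.57-fold lower. *CDH3* made up 87.9% and 90.9% of that sum in edited cells against 81.2% and 83.4% in wild-type cells. Its share was thus higher in both edited libraries, the opposite of its share when *CDH13* was counted. *CDH24* is not in this sum. It was at 17.2 and 12.1 in edited cells against 18.9 and 22.6 in wild-type cells, above *CDH2* in each library. Relative to the sum it weighs more in edited cells, and with it added the shares of *CDH3* overlap between the genotypes. The rise of the *CDH3* share therefore holds for the summed genes only. *CDH2* made up 4.84% and 6.23% of the same sum in edited cells against 0.0532% and 0.0134% in wild-type cells. The ratio of *CDH2* to *CDH1* was 1.16 and 5.74 in edited cells against 0.00285 and 0.000810 in wild-type cells. *CDH2* therefore exceeded *CDH1* in both edited libraries, while the value of *CDH3* remained above that of *CDH2* in each.

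**Figure D3:**
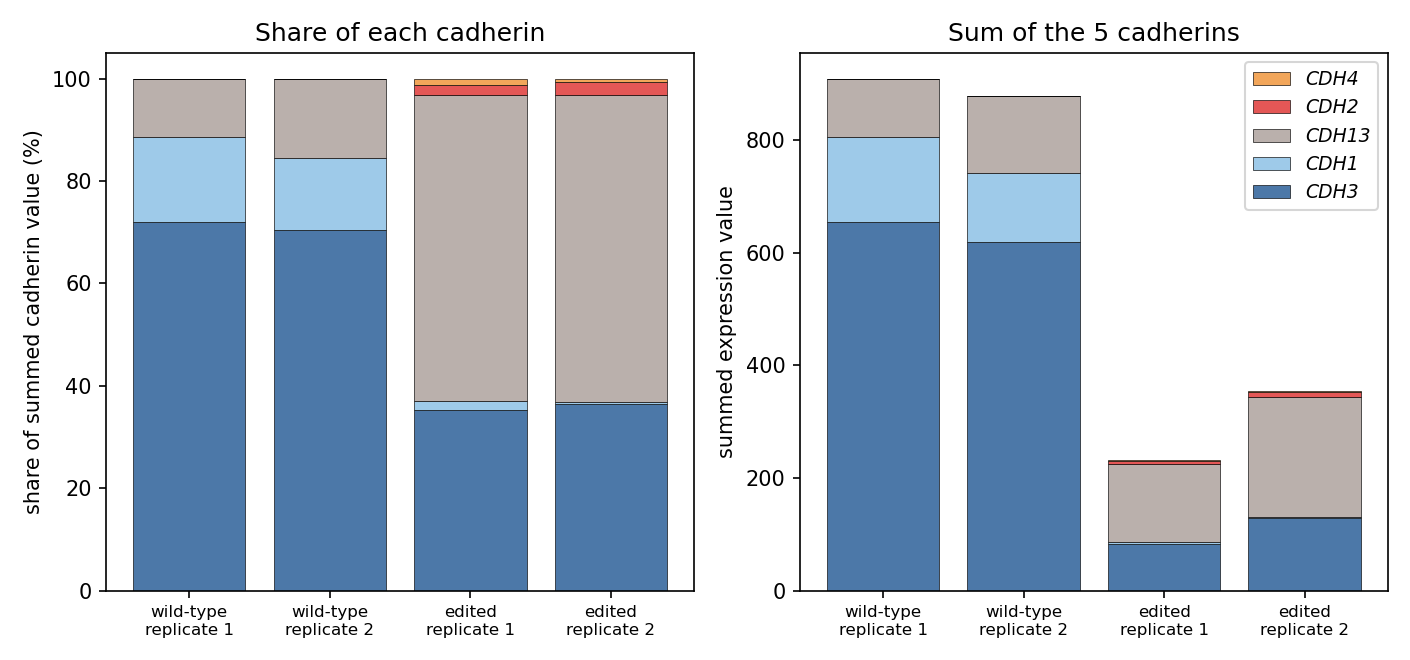
Share of each cadherin in the summed value of 5 cadherins (left, in percent) and the sum itself (right, expression value) in each library. *CDH3* fills 71.2% of the bars on average in wild-type cells and *CDH13* 59.8% in edited cells, and the sums are 3.05-fold lower in edited cells.

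None of the 3 catenins was called. Beta-catenin was at 175 and 205 in edited cells against 198 and 187 in wild-type cells, so the groups overlapped. The log2 fold change of *CTNNB1* was -0.03 with a 95% interval from -0.48 to 0.43 (limma adjusted p = 0.940). The summed value of the 5 cadherins over that of *CTNNB1* was 1.33 and 1.73 in edited cells against 4.58 and 4.70 in wild-type cells. Leaving out *CDH13* gave ratios of 0.535 and 0.696 after editing against 4.06 and 3.97 in unedited cells. Both ratios were lower in both edited libraries (exact two-sided permutation p = 0.333 each, the smallest possible).

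Alpha-catenin had the highest value of the 8 genes. *CTNNA1* was at 1195 and 1285 in edited cells against 949 and 893 in wild-type cells, which did not overlap. Its log2 fold change was 0.43 (SE 0.19, 95% interval from -0.06 to 0.92, limma adjusted p = 0.213). The gene lies on chromosome 5, from 138753425 to 138935034 (GRCh38). The 5 measured genes on each side of it all had positive log2 fold changes, from 0.36 to 1.73 with a median of 0.69. They are not all separate loci. *SNORD63* and *SNORD63B* lie within *HSPA9*, and *SNORA74A* lies within *SNHG4*, which shares its first base with *MATR3*. The median over the 592 measured genes of chromosome 5 was 0.26, and 6.93% of them were called. The part of this stretch in the value of *CTNNA1* was not tested.

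Delta-catenin, which binds the part of the cadherin tail next to the membrane and holds cadherins at the surface, was lower without passing the threshold. *CTNND1* was at 131 and 136 in edited cells against 221 and 283 in wild-type cells. The groups did not overlap, and the mean was 1.88-fold lower in edited cells. The log2 fold change was -0.90 (SE 0.20, 95% interval from -1.40 to -0.40, limma adjusted p = 0.0654), and over the alternatives that kept all libraries the adjusted p ranged from 0.0558 to 0.0836. The read-through gene *TMX2-CTNND1* covers *CTNND1* on chromosome 11 and was called higher in edited cells (limma adjusted p = 0.00628). It was at 15.2 and 14.2 in edited cells and is listed at 0 in both wild-type libraries. Reads from the part that both genes share cannot be told apart, so the split between them is uncertain. With both added, a sum chosen after seeing the data, the values were 146 and 151 in edited cells against 221 and 283 in wild-type cells, which did not overlap. Among the 5 measured genes on each side of *CTNND1*, *TMX2-CTNND1* included, 9 of the 10 had positive log2 fold changes (median 0.33). *CTNND1* fell short of *CTNNB1* in the edited libraries (ratios of 0.750 and 0.667) and exceeded it in the wild-type libraries (1.11 and 1.51). Groups that do not overlap were common, at 61.6% of all genes and 7 of these 8.

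Of 7 other catenins and relatives looked for, 4 had a row and 0 were called (limma, adjusted p under 0.05). At 4.73% of all genes called, a count of 0 among 4 is no result about these genes. Plakoglobin (*JUP*), which takes the place of beta-catenin in cadherin complexes and also sits in desmosomes, was at 71.5 and 112 in edited cells against 204 and 197 in wild-type cells. Its log2 fold change of -1.16 (SE 0.25, limma adjusted p = 0.0650) did not pass the threshold. *CTNNAL1*, *ARVCF* and *PKP4* had log2 fold changes from -0.28 to 0.26. The list's median was -0.06, against 0.01 over all genes. An unadjusted p under 0.05 was found for 1 of the 4 genes, *JUP*, against 4909 of all 16811 genes.

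Among 19 partners of the adherens junction, 1 gene was lower, 0 were higher and 18 were not called, near the 4.73% of all genes called. The gene was *NECTIN4*, an adhesion protein of epithelial junctions that binds the actin linker afadin. It was at 16.6 and 11.3 in edited cells against 43.6 and 55.4 in wild-type cells (log2 fold change -1.77, limma adjusted p = 0.0349), and was not called when any 1 library was dropped. The nectin family did not move as a block. *NECTIN3* had a log2 fold change of 0.88 (limma adjusted p = 0.0957), *NECTIN1* of -1.22 (adjusted p = 0.120) and *NECTIN2* of 0.10 (adjusted p = 0.798). *VCL*, the vinculin gene, had a log2 fold change of 0.17 and *AFDN*, the afadin gene, of -0.25 (limma adjusted p = 0.589 and 0.496). *NUMB*, an endocytic adaptor of cadherins, had a log2 fold change of -0.93 (limma adjusted p = 0.0593). The median log2 fold change of the list was -0.23.

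Among 9 genes for transcription factors known to repress *CDH1*, 2 rose, 0 fell and 7 were not called, where 4.73% of all genes were called and 1.33% were called higher. *ZEB1* was at 5.83 and 6.80 in edited cells against 0.333 and 0.927 in wild-type cells (log2 fold change 2.19, limma adjusted p = 0.0307). *TWIST2* was at 17.9 and 18.3 in edited cells against 6.93 and 3.77 in wild-type cells (log2 fold change 1.64, limma adjusted p = 0.0488). These calls lay near the threshold, and with a pseudocount of 0.1 the adjusted p was 0.0502 for *ZEB1* and 0.0605 for *TWIST2*. Neither was called when any 1 library was dropped. *ZEB2*, the paralog of *ZEB1*, was at 2.21 and 4.36 in edited cells against 0.299 and 0.456 in wild-type cells and was not called (log2 fold change 1.59, limma adjusted p = 0.0604). *SNAI1* and *SNAI2*, for SNAIL and SLUG, had log2 fold changes of 0.31 and -0.30 (limma adjusted p = 0.618 and 0.423). *SNAI2* had the highest value of the SNAIL, ZEB and TWIST genes in both genotypes, 50.3 ± 9.53 in edited and 61.8 ± 9.56 in wild-type cells (SD, n = 2). The list's median log2 fold change was 0.35. *ZEB1*, *CDH1* and *CDH2* were among the genes the study itself names, so their directions are not independent evidence.

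Beta-catenin that is not bound to cadherin is degraded by a destruction complex or enters the nucleus, where it acts with TCF factors. Of 8 genes of the destruction complex, *APC*, *AXIN1* and *GSK3B* among them, 0 were called by limma and 0 had an unadjusted p under 0.05. At 4.73% of all genes called, a count of 0 called in a list of this size is no result about its genes. Over all 16811 genes, 4909 had an unadjusted p under 0.05. The log2 fold changes of the 8 genes ran from -0.29 to 0.50 with a median of 0.20. Of 13 TCF factors and target genes of beta-catenin, 7 had a row and 0 were called by limma, against the same 4.73%. An unadjusted p under 0.05 was found for 1 of the 7, against 4909 of all 16811 genes. The median log2 fold change of the 7 was -0.59, and 6 of them were negative. *RNF43*, a target that removes WNT receptors, was at 1.30 and 1.38 in edited cells against 3.64 and 4.96 in wild-type cells (log2 fold change -1.17, limma adjusted p = 0.0639). *TCF7L2*, the TCF gene with the highest value, had a log2 fold change of -0.06 (limma adjusted p = 0.880). *AXIN2*, *LEF1*, *LGR5*, *NKD2*, *NOTUM* and *SP5* had no row.

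**Figure D4:**
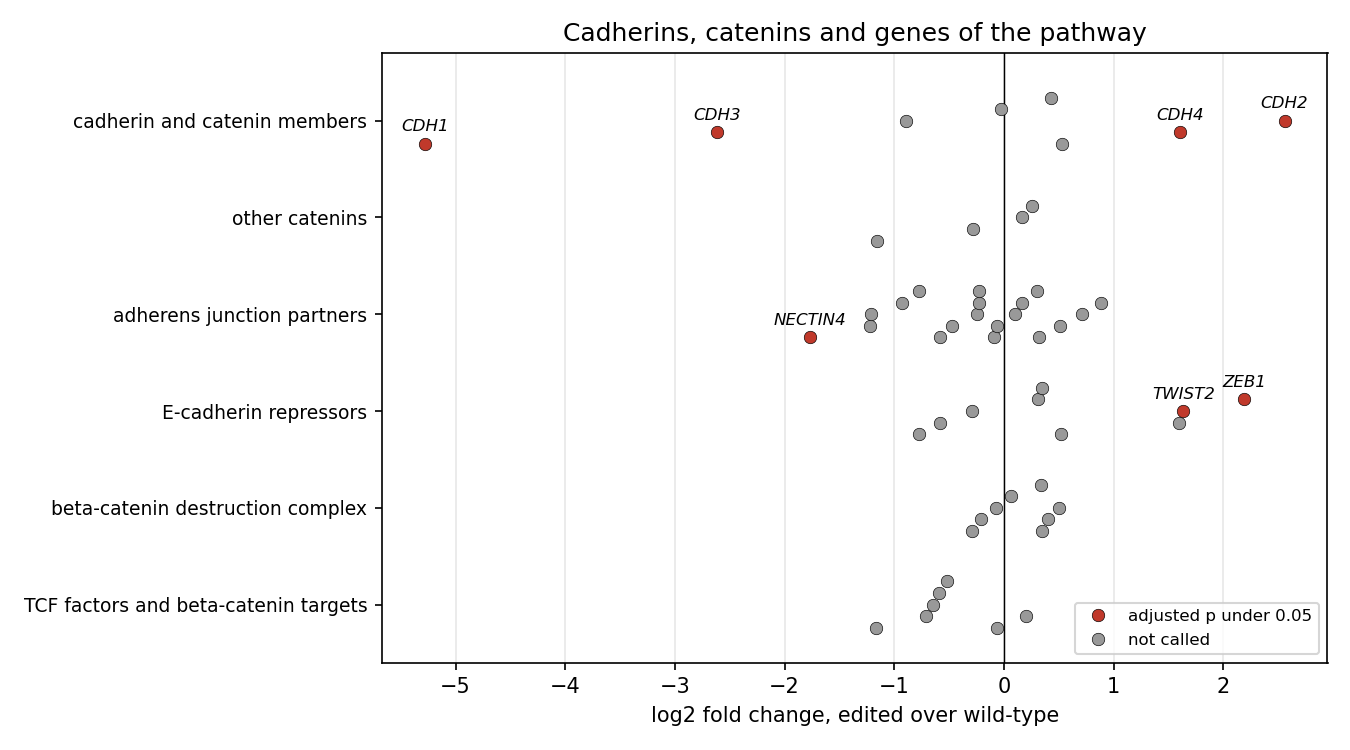
Log2 fold change of edited over wild-type cells (horizontal axis) for each measured gene of 6 lists, with the vertical offset within a list for display only. Coloured points passed an adjusted p of 0.05 (limma) and are named: *CDH1*, *CDH3* and *NECTIN4* lower, and *CDH2*, *CDH4*, *ZEB1* and *TWIST2* higher.

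Markers of cell types were measured in the same libraries. Of 7 markers that define mammary epithelium, all had a row. Their median log2 fold change was -2.11, 5 of 7 were negative, and *TP63*, a basal cell factor, was lower (log2 fold change -2.65, limma adjusted p = 0.0396) while *KRT8* was higher (1.01, adjusted p = 0.0450). The basal keratin *KRT5* was at 3514 and 3056 in edited cells against 4590 and 11914 in wild-type cells (log2 fold change -1.17, limma adjusted p = 0.187). *KRT14*, its basal partner, was at 80.3 and 190 in edited cells against 585 and 1880 in wild-type cells (log2 fold change -3.08, limma adjusted p = 0.0635). *EPCAM* and *KRT19* had log2 fold changes of -2.31 and -2.11 (limma adjusted p = 0.0522 and 0.0569), and *KRT18* of 0.89 (adjusted p = 0.340). For 6 of the 7 markers the groups did not overlap, against 61.6% of all genes. *TP63* and *KRT8* were the called markers of this list, where 4.73% of all genes were called. The summed values of the 7 markers ranged from 3943 to 4262 in edited and from 5839 to 14212 in wild-type cells. Of 8 fibroblast markers, 2 had a row, and their summed values ranged from 18.3 to 111 in edited and from 23.0 to 29.2 in wild-type cells. *DCN*, for decorin, was at 15.1 and 105.0 in edited cells against 7.42 and 1.09 in wild-type cells. It was not called (log2 fold change 3.30, limma adjusted p = 0.119). *COL1A1* was lower (log2 fold change -2.06, limma adjusted p = 0.0490). None of the 6 endothelial markers had a row, and of 6 leukocyte markers 2 had one, with summed values from 33.2 to 52.0 in edited and from 38.2 to 41.1 in wild-type cells. *PTPRC*, which defines leukocytes, had no row. The part of other cells in these results was not tested, and in bulk RNA fewer cells of a type and less RNA per cell cannot be told apart.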

How the data were processed

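RNA-seq was made from 2 libraries of edited and 2 of wild-type MCF12A cells, grouped and numbered by their titles. The authors deposited 1 normalized signal per gene and library for 16811 genes listed by symbol, and 0 further value columns. The submitters' processing notes name Salmon, HISAT2 and the build hg38 with no role, and the annotation, normalization and any gene filter are not given in the sources used here. The depth was estimated from 800 genes with 1 transcript of at least 250 bases and values above 0 in all libraries. In 56 of them all 4 values were whole multiples of 1 step, within 0.02 of a read, and the step times the transcript length (GENCODE version 44, lengths only) was similar between genes, with quartiles of 0.112 and 0.117 per kb. Read numbers in the text come from that step and the canonical transcript length, are approximate, and cover counting error only, because PCR copies cannot be told from separate molecules. Whole reads could not be recovered for most genes, so tests for counts were not used.

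A linear model with a variance trend was fitted to log2(value + 1) of all genes (lmFit and eBayes of limma 3.58.1, R 4.3.3), with neither a filter on low values nor a replicate block, with Benjamini-Hochberg adjustment over all genes and a threshold of 0.05. This scale understates the change of low genes. The fit was checked on simulated libraries. Their noise depended on a gene's level alone and no gene of low level was changed. Calls at the level of *CDH2*, *CDH4* and *ZEB1* were thus not checked. Sums, shares and ratios were compared with exact two-sided permutation tests. Positions and promoters came from RefSeq on GRCh38.p14, where 12499 genes matched by symbol and 795 by a synonym. *AFDN* was read under its older symbol. The genes and lists were chosen with earlier results of these data known. Named genes are the 9 chosen ones, up to 6 called genes of each list by fold change, the 5 measured genes on each side of *CDH1*, and markers with their list. Genes of a list that were not called and are named beside it were chosen after their values were seen. Pseudocounts of 0.1 and 5, filters at a mean of 1 and 10, 3 other scalings, the replicate block, no variance trend, a robust variance estimate, a threshold of 0.001 and leaving out each library were tried. Python 3.11.15, numpy 2.4.6, pandas 2.3.3 and scipy 1.17.1 were used.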

Additional observations from a re-analysis of the deposited data

How the results depend on the processing

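The robust variance estimate, the sums without *CDH13* and that of *CTNND1* with *TMX2-CTNND1* were chosen after seeing the data. The 8 cadherin and catenin genes kept their direction under every other pseudocount, filter, scaling and variance setting in which they were tested. *CTNNB1* alone changed sign with a library left out, to 0.0873 without edited replicate 1 and 0.02 without wild-type replicate 1, within a range from -0.14 to 0.0873 (log2 fold change). With all libraries, *CDH1* and *CDH3* stayed called under each setting at an adjusted p under 0.05 (limma, 0.00328 to 0.0254 and 0.0120 to 0.0482). The adjusted p of *CDH2* ranged from 0.0310 to 0.0708 and that of *CDH4* from 0.0370 to 0.0774. The 2 genes that rose became 1 with a pseudocount of 0.1, and 0 with a mean of at least 10, which leaves both out of the test, and with the replicate block. With each library left out in turn, 0 genes rose and 0 to 2 fell of the 8. *CDH1* had an adjusted p of 0.116 and 0.176 without wild-type replicates 1 and 2 (limma), and *CDH3* of 0.125 and 0.197 and, without edited replicate 1, of 0.0726. *CDH2* and *CDH4* lost their call without any 1 library, with an adjusted p from 0.0775 to 0.228 and from 0.102 to 0.225. Without either wild-type library 0 of the 16811 genes were called (4169 and 2796 at an unadjusted p under 0.05), and 52 and 248 without edited replicates 1 and 2. In each of these fits the lone library is assumed to vary like the other group, and the cause of the lower counts was not tested.

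Of all genes, 795 were called, 224 higher and 571 lower. This became 517 and 127 higher with a pseudocount of 0.1, and 125, 17 higher and 108 lower, with the replicate block. With a library left out it ranged from 0 to 248 (0 to 28 higher and 0 to 220 lower). At 0.001 it was 0 (4909 at an unadjusted p under 0.05), and 0 also for the 8 genes and each list. Of the junction partners, the 1 gene called became 2 with equal library totals and cyclic loess normalization, 0 with the replicate block and 0 to 0 with a library left out. Of the *CDH1* repressors, the 2 called became 1 with a mean of at least 10, with quantile normalization and with no variance trend, 0 with a pseudocount of 0.1 and with the replicate block, and 0 to 0 with a library left out. The share of *CDH3*, which was lower in edited cells by 35.3 percentage points, turned to 7.06 points higher without *CDH13*. Neither sum holds *CDH24*. Equal library totals moved the median log2 fold change of all genes from 0.01 to -0.09.

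The libraries share replicate numbers, but deviations of same-numbered libraries from their group means correlated at -0.09 over 16811 genes, so the numbers are not taken as pairs. Low levels limit the wild-type values of *CDH2* and *CDH4*, which rest on about 4 to 23 estimated reads. *ZEB1* was low in wild-type cells as well, at 0.333 and 0.927, and its reads were not estimated.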
